A study of Rattus norvegicus with 6 samples.

Results

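The genes of the dual-specificity MAP kinase phosphatases (MKPs) were examined by chromatin immunoprecipitation and sequencing (ChIP-seq) in PC12, a line grown from a rat adrenal medullary tumour. The 9 genes, Dusp1, Dusp2, Dusp4, Dusp5, Dusp6, Dusp7, Dusp8, Dusp10 and Dusp16, were chosen by symbol, with their listed peaks and signals already known, so their peak positions, distances and signals are given as a description and without a test. Every row that the authors' annotated peak table assigned to one of these symbols was taken. That gave 89 of the 159452 peaks of the table, from 8 of the 9 genes and of the 14390 genes in the table. Dusp16 had no row. One further MKP gene, Dusp9, was not among the 9.

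The study compared cells stably expressing human α1ACT (Q11 in the sample titles), a transcription factor encoded within the CACNA1A transcript, with cells stably carrying the empty pCDNA3 vector, all at passages 18 to 20 and crosslinked with 1% formaldehyde for 10 min. The 6 libraries were an 1804 precipitate, an M2 (anti-FLAG) precipitate and an input of the α1ACT cells, and the same 3 of the empty-vector cells. There was 1 library per group, and replicate error could not be estimated for any value. The labels do not say what the 1804 antibody recognises or whether a line was 1 clone, and the series design text speaks of tissues at day 3 where the sample labels name PC12 cells. Read depth is unknown. All member peaks came from the α1ACT 1804 list, which held 161730 peaks, against 81 in the α1ACT M2 list, 272 in the empty-vector 1804 list and 244 in the empty-vector M2 list. Of 10 chromaffin and sympathetic marker genes, chosen as a check of the labelled cell type, 5 had a peak within 1000 bp of the transcription start site (TSS). The same held for 32.9% of 18539 protein-coding genes and for 43.2% of the genes in the table. The count is thus no check of the cell type. Among the 5 was Th, the rate-limiting enzyme of catecholamine synthesis, with a signal of 8.79, while Dbh, the enzyme that makes noradrenaline, had no row. Peaks do not show whether a gene was expressed.

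MAP kinases are switched on by phosphorylation of a threonine and a tyrosine in their activation loop, and MKPs switch them off by removing both phosphates. Several MKP genes are themselves induced by the kinases their products inactivate, so that the enzymes form a negative feedback loop. In PC12 cells, how long the kinase ERK stays active after growth factor treatment is known to go with whether the cells divide or grow neurites. By the location and preference of their products, the 9 genes fall into nuclear inducible MKPs (Dusp1, Dusp2, Dusp4 and Dusp5), cytoplasmic ERK-selective MKPs (Dusp6 and Dusp7) and MKPs that prefer the stress kinases JNK and p38 (Dusp8, Dusp10 and Dusp16).

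Upstream sequences are given for 4 of the genes, chosen for how their listed peaks differ. Dusp1 and Dusp5 had a peak over the TSS, Dusp7 had one just upstream of it, and Dusp10 had none within 40 kb. Each is the 250 bases before the RefSeq gene start on assembly GRCr8, read 5′ to 3′ on the strand of the gene, and all 4 genes are on the plus strand. The peak coordinates are on rn5 and were not carried over, so the peaks are not marked in these letters. Capitals mark matches, on either strand, to the cyclic AMP response element (CRE, TGACGTCA) and its core (TGACG), the E-box (CACGTG), the SP1 motif (GGGCGG) and the CArG box, the element of serum response factor.
Dusp1, chr10:17184603-17184852: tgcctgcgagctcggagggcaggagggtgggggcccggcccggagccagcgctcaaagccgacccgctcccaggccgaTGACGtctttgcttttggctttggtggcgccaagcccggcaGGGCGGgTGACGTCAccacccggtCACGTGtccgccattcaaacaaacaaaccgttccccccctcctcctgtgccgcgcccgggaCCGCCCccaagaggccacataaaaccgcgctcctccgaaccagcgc
Dusp5, chr1:262543524-262543773: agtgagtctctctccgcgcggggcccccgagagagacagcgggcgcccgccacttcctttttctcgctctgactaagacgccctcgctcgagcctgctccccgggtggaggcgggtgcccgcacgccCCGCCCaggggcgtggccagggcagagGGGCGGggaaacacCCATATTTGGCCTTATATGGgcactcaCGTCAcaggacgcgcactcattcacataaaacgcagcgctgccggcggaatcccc
Dusp7, chr8:115887841-115888090: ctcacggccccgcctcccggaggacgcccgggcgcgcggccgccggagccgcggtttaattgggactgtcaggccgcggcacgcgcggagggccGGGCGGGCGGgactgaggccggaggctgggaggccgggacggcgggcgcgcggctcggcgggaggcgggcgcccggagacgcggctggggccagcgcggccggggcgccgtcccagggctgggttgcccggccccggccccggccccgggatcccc
Dusp10, chr13:98145643-98145892: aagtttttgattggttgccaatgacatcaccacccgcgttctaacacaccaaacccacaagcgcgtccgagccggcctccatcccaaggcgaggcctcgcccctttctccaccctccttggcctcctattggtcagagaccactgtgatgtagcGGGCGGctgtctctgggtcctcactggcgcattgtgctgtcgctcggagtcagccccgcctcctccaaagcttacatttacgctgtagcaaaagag

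The Dusp1 stretch held 1 full CRE from 124 to 117 bases before the start, a second CRE core from 172 to 168 bases before it, and an E-box from 107 to 102. Of 15165 promoters of protein-coding genes in the RefSeq tables, searched over the same 250 bases, 2.35% held the full CRE, 23.4% the core, which includes every full CRE, and 7.01% the E-box. Dusp4 had no matched promoter and was not searched. Among the other 8 members, Dusp5 was the one with a CArG box, against 1.22% of all promoters. It had 2, from 82 to 73 and from 72 to 63 bases before the start. The CRE core was also found in Dusp2, Dusp5 and Dusp16. The E-box was found in Dusp2 as well, and the SP1 motif in 6 of the 8 members, against 47.0% of all promoters. In Dusp7 the 2 SP1 matches overlapped. No member of the 8 held the AP-1 motif TGANTCA (5.55% of all promoters), the ETS motif CCGGAA (18.4%) or TATAAA (11.3%), which says only that these letters are not in this stretch. The 2 forms of the EGR motif, GCGGGGGCG and GCGTGGGCG, were searched together. A match was present in Dusp2, Dusp8 and Dusp16, against 4.38% of all promoters, and in Dusp2 and Dusp16 it overlapped an SP1 match. Of the 357 promoters with the full CRE, 47.3% belonged to a gene with a listed peak within 1000 bp of its TSS, against 33.0% of all 15165. The share was similar for promoters with the EGR motif (48.2%), the SP1 motif (46.6%), the ETS motif (46.0%), the CRE core (43.6%) and the E-box (43.4%). It was 26.5% with the CArG box, 21.6% with the AP-1 motif and 17.8% with TATAAA. The motifs above the 33.0% all contain the letters CG, and those below it do not. The shares were not separated from base composition, and a link between a motif and a peak was not tested.

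Base composition varied among the members. The G and C content of the 250 bases was 84.4% in Dusp7, above 99.7% of all promoters, 68.8% in Dusp1, 68.4% in Dusp2, 67.2% in Dusp5 and 66.0% in Dusp16. It was 61.2% in Dusp8, 58.0% in Dusp10 and 55.6% in Dusp6. The median was 57.2% over all promoters. It was 62.4% for genes with a near-TSS peak and 54.0% for genes without one. Dusp1, Dusp2 and Dusp5, at 67.2 to 68.8%, had a near-TSS peak, as did Dusp8 and Dusp6, and Dusp10, at 58.0%, had none. Dusp7, with the highest content of the 8, had the near-TSS peak of lowest signal, given below, and Dusp16, at 66.0%, had no row. The ratio of observed to expected CG pairs ran from 0.672 in Dusp2 to 1.03 in Dusp16. Its median was 0.626 over all promoters, 0.795 for genes with a near-TSS peak and 0.466 for genes without one. Whether base composition bears on the peaks was not tested.

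Peaks close to the start were listed for 7 of the 9 genes. Every member except Dusp10 and Dusp16 had 1 to 3 peaks within 1000 bp of the TSS. The same held for 32.9% of 18539 protein-coding genes whose RefSeq transcript is curated, genes without a row counted as without a peak, and for 43.2% of the genes in the table, where the members stood at 7 of 8. The distance is the authors' own. On every row it was measured to the start coordinate of an upstream peak and the end coordinate of a downstream one, so it can be off from the nearest edge by up to the width of a peak, 56 bp. The signal is the authors' value per peak, in no stated unit, and is used only to rank peaks within this list. It ran upward from 2.00, with a median of 3.02 over the table. Peaks of 5.28 or more made up its upper 10%.

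**Figure D1:**
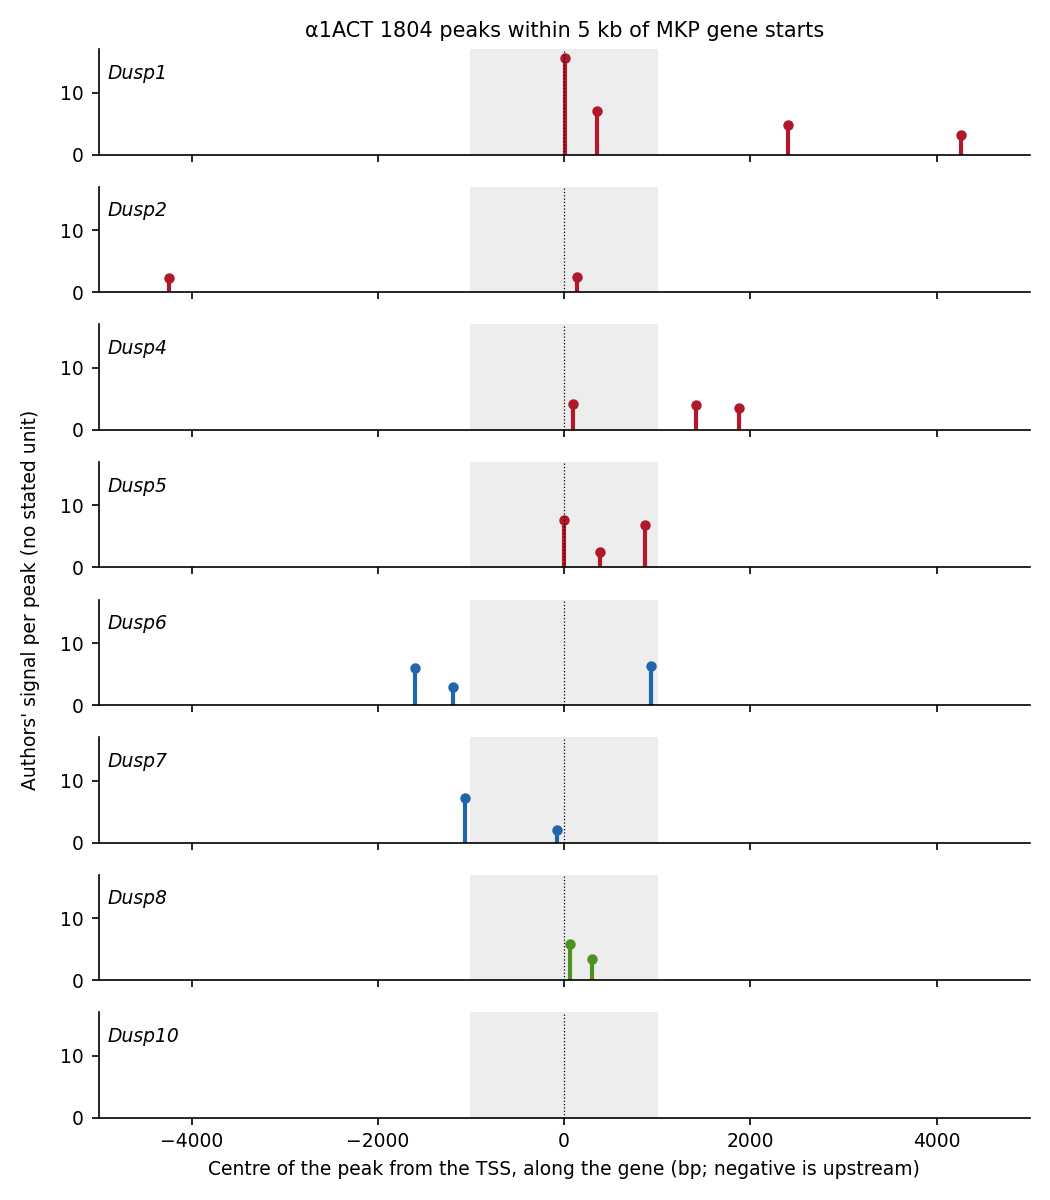
Peaks of the α1ACT 1804 list assigned to 8 MKP genes, by the position of the peak centre from the TSS along the gene (bp) and the authors' signal; each stem is 1 peak, the grey band spans 1000 bp on either side, and red, blue and green mark nuclear inducible, cytoplasmic ERK-selective and JNK and p38 MKPs. Dusp1 has the tallest stem, 15.6 over its TSS, Dusp10 has none in view, and Dusp16, which had no row, is not drawn.

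All 4 nuclear inducible MKP genes had a near-TSS peak, 7 peaks in all, with signals of 2.43 to 15.6. Dusp1, whose product dephosphorylates p38, JNK and ERK, had the highest. Its peak on chromosome 10 from 16867359 to 16867414 lay over the TSS and had a signal of 15.6, which exceeded 99.9% of the table. The next peak, with its end 380 bp downstream, had a signal of 7.05, the one at 2426 bp had 4.77, and the one at 4290 bp, beyond the end of the gene, had 3.18. Over these 4 peaks the signal was lower at each step away from the Dusp1 start. Among the 6219 genes with a near-TSS peak, the highest near-TSS signal of Dusp1 stood above that of 99.1%. The genes most like it, by having 2 near-TSS peaks and the nearest highest signal in this 1 list, were Btbd10 with 15.5, Dut with 15.8 and Pigm with 15.4, out of 1576 genes with 2 such peaks.

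Dusp5, whose product is a nuclear phosphatase for ERK, had the most near-TSS peaks of the 9 genes. On chromosome 1, a peak from 281658045 to 281658100 lay over the TSS with a signal of 7.73, one ending 413 bp downstream had 2.48 and one ending 894 bp downstream had 6.91. The middle peak was thus the weak one, below the median of the table. Only 1 more peak was assigned to Dusp5, 19.2 kb downstream, with a signal of 3.96. Dusp1 and Dusp5 were the members with a peak over the TSS, 2 of the 8 with a row, against 4.98% of the genes in the table. Dusp1, Dusp5 and Dusp8, 3 of the 8 with a row, had 2 or more near-TSS peaks, against 15.1% of the genes in the table.

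Dusp4 and Dusp2 had lower near-TSS signals. Dusp4, a nuclear phosphatase for ERK and JNK, had a peak 68 bp downstream (chromosome 16, 60760842 to 60760897), of signal 4.16. Next came peaks at 1390 bp, with 4.03, and at 1855 bp, with 3.52, all 3 inside the gene. Its highest peak of all, 4.72, was counted 34.5 kb downstream of the Dusp4 start but lay in an intron of Tnks, the gene of the poly-ADP-ribosyltransferase tankyrase, as did 2 others assigned to Dusp4. Dusp2, first described as an inducible phosphatase of activated lymphocytes, had a single near-TSS peak, 162 bp downstream on chromosome 3 from 126303306 to 126303361. Its signal was 2.43, which exceeded 21.4% of the table. All 3 peaks of Dusp2 lay between 2.24 and 2.44, so none of them reached the median.

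The cytoplasmic ERK-selective MKP genes carried their stronger peaks off the start. Dusp7 had 2 peaks in all, on chromosome 8. The one from 114436671 to 114436726 began 101 bp upstream of the TSS, and its signal of 2.09 exceeded 3.03% of the table. The one 1096 bp upstream had 7.16, which exceeded 96.9%. Dusp7 therefore counts as having a near-TSS peak only through a peak close to the lowest signal listed, while its strong peak fell just outside 1000 bp. Dusp6, the feedback phosphatase of the fibroblast growth factor and ERK pathway, had a near-TSS peak 960 bp downstream (chromosome 7, 41507302 to 41507357), of signal 6.33. This peak lay just inside the limit of 1000 bp, as did the Dusp5 peak at 894 bp. The start was flanked on the other side by peaks at 1221 bp upstream with 2.92 and at 1626 bp upstream with 5.94. No Dusp6 peak had an edge closer than 905 bp to the TSS.

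Of the MKPs that prefer JNK and p38, 1 of 3 had a near-TSS peak. Dusp8, expressed in brain, had 2 on chromosome 1, one 34 bp downstream (221955420 to 221955475), of signal 5.87, and one at 270 bp downstream with 3.50. Its other 7 peaks lay 25.2 to 113 kb upstream, with signals of 2.41 to 4.25. Dusp10 was assigned 13 peaks, none within its 37130-bp gene. The nearest edge of any of them was 40954 bp from the TSS, on the upstream side. The other 12 lay 112 to 421 kb downstream, beyond the end of the gene. The strongest, at 112 kb, had a signal of 9.19, which exceeded 98.9% of the table and was the second highest of all 89 member peaks.

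**Figure D2:**
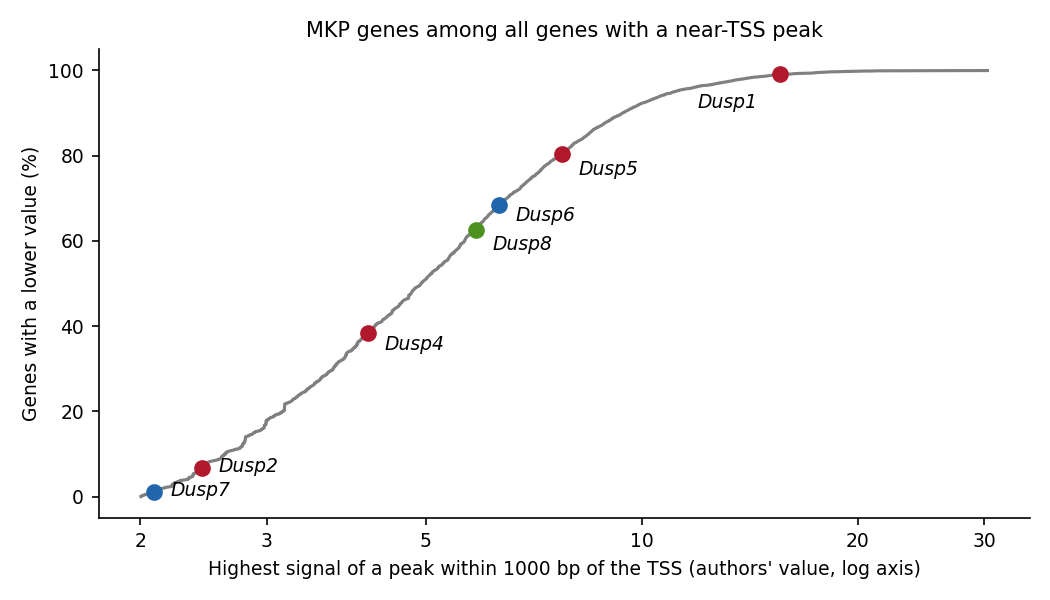
Highest signal of a peak within 1000 bp of the TSS for the 6219 genes that have one (grey curve, log x axis) against the percent of those genes with a lower value, with the 7 MKP genes as points in the same colours as in the plot of peaks around the start. The points run from Dusp7, above 1.03% of the genes, to Dusp1, above 99.1%.

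Set beside all genes with a near-TSS peak, the 7 members spread over nearly the whole range. The percent of those genes with a lower highest signal was 99.1 for Dusp1, 80.4 for Dusp5, 68.5 for Dusp6, 62.6 for Dusp8, 38.4 for Dusp4, 6.77 for Dusp2 and 1.03 for Dusp7. The median of the highest near-TSS signal was 5.87 over the 7 members and 4.92 over all 6219 genes. Dusp1, Dusp5, Dusp6 and Dusp8, 4 of 9 and 4 of the 8 with a row, had a near-TSS peak in the upper 10% of the table. The same held for 19.7% of the genes in the table, genes without a near-TSS peak included. Among near-TSS peaks alone, 6 of 11 member peaks (54.5%) were in the upper 10%, against 37.1% of all such peaks. The order within the nuclear group ran from the top of the family, Dusp1, to its last place but one, Dusp2. Genes whose products share a location thus did not share a level of near-TSS signal.

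Near-TSS peaks of the members lay mostly over or downstream of the TSS, as did those of the whole table. The 11 came from 7 genes in 1 library. Of the 11, 10 lay over or downstream of the TSS and 1, that of Dusp7, upstream, against 66.6% over or downstream among the 9175 near-TSS peaks of the table. Neighbouring near-TSS peaks of 1 gene were 347 bp apart from start to start in Dusp1, 388 and 481 bp apart in Dusp5 and 236 bp apart in Dusp8. The median over all genes was 371 bp. The deposited q-value reached a ceiling, a −log10 of 3.89, for 6 of the 11 member peaks near the TSS and for 30.3% of all near-TSS peaks, so the q-value did not separate those peaks. The lowest signal at the ceiling was 5.79.

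By annotation, over all distances, the member peaks differed from the table mainly in a larger share at promoters and a smaller share in introns. Of the 89 peaks, 67 (75.3%) were annotated as distal intergenic, against 74.6% of the table, 17 (19.1%) as promoter, against 7.65%, and 3 (3.37%) as intronic, against 16.2%. All 3 intronic peaks were those assigned to Dusp4 that lay in Tnks, so none lay in an intron of a member. Within 1000 bp of the TSS lay 11 of the 89 (12.4%), against 5.75% of the table, and from there to 3 kb 6 (6.74%), against 1.90%. From 3 to 10 kb lay 5 (5.62%), against 5.91%. More than 200000 bp from the TSS lay 25 (28.1%), against 38.4%. The median distance was 69456 bp for the member peaks and 119026 bp for the table. Inside the gene they were assigned to lay 13 of the 89 (14.6%), against 17.2% of the table. The median signal of the 89 was 3.03 and that of all peaks in the table was 3.02. In the upper 10% by signal were 18 of the 89 (20.2%). Beyond 1000 bp, where 78 member peaks lay, the share was 15.4%, against 8.35% of all peaks at such distances in the table. These shares are of peaks that share 1 library and a few loci, and Dusp6 alone gave 34 of the 89.

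Dusp6 had the most peaks, more than 93.2% of the genes in the table. Of its 34, 25 lay more than 50 kb from the TSS, reaching 372 kb downstream, and the next listed gene on that side was Kitlg, the gene of the Kit receptor's ligand, with its TSS 796 kb away. In all, 17 of the 34 fell into a pair of tight runs, defined after seeing the positions as 5 or more peaks with starts no more than 2000 bp apart. One run of 7 peaks lay 68.6 to 71.7 kb downstream, on chromosome 7 from 41574975 to 41578098, with signals of 2.19 to 3.70. The other, of 10 peaks, lay 367 to 372 kb downstream, from 41873368 to 41878435, with signals of 2.24 to 7.31. Its last peak was the strongest assigned to Dusp6, above the 6.33 of the near-TSS peak. Such runs were common: the whole list had 7074, which held 32.9% of its peaks, and 18.0% of them had 10 or more. No other member had one.

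**Figure D3:**
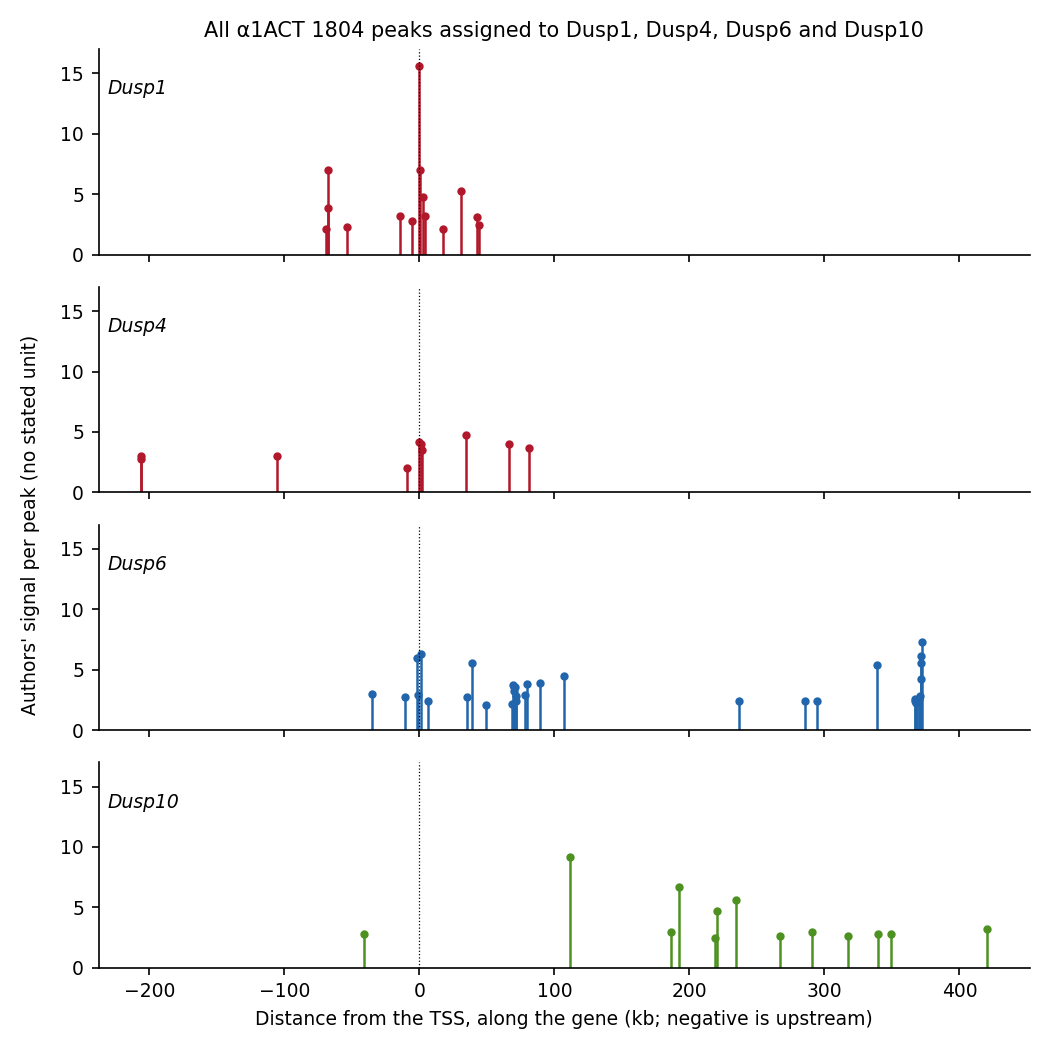
All peaks assigned to Dusp1, Dusp4, Dusp6 and Dusp10 by their distance from the TSS along the gene (kb) and the authors' signal; each stem is 1 peak, in the same colours as in the plot of peaks around the start. Dusp1 peaks centre on the TSS, Dusp6 peaks pile up near 70 and 370 kb downstream, and 12 of the 13 Dusp10 peaks lie 112 kb or more downstream.

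Dusp1 peaks were spread to both sides. Of its 14, 4 lay more than 50 kb upstream, among them a peak of 7.01 at 68.0 kb with a second, of 3.87, 335 bp from it. A peak 30.5 kb downstream had 5.28. The listed genes on either side were Atp6v0e1, with its TSS 182 kb away, and Neurl1b, 105 kb away. Counting all peaks of the list within 50 kb of a member's TSS, whichever gene they were assigned to, Dusp1 had 10, Dusp6 9, Dusp8 7, Dusp2 6, Dusp4 and Dusp5 5 each, Dusp7 3 and Dusp10 1. The strong near-TSS peaks and the number of peaks around them did not go together throughout: Dusp2, with a signal of 2.43, had more peaks in this window than Dusp5, with 7.73.

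Dusp16, the gene of a JNK-selective phosphatase, could be placed only through its neighbours. Its neighbours by gene order on GRCr8, Borcs5 and Crebl2, each had 1 row, on chromosome 4 of rn5. No peak was listed in the 129 kb between them. The stretch without a peak ran from 232715541 to 232897288, or 182 kb, longer than 99.5% of the gaps between neighbouring peaks of the list, whose median was 2.92 kb. The next 5 genes beyond Crebl2, Gpr19, Cdkn1b, Apold1, Ddx47 and Gprc5a, had no row either. The other side was not empty: beyond Borcs5, Mansc1 had no row, but Lrp6 had 4, Bcl2l14 1, Etv6 3 and Kap 15. Within 500 kb of the interval between Borcs5 and Crebl2, 11 peaks were listed. Chromosome 4 had the fewest peaks per Mb of the 21 chromosomes with annotated peaks, 30.9, and held a peak-free stretch of 65.2 Mb elsewhere. Outside that stretch it had 41.9 per Mb, and chromosome 5, the next sparsest, had 40.0. Whether the authors' gene models on rn5 held Dusp16 is not given in the sources used here. Dusp9, the remaining MKP gene, had 3 peaks, the nearest 35547 bp upstream, with signals of 2.27 to 2.88.

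None of the other 3 lists placed a peak at a member. Of the 89 member peaks, 0 overlapped a peak of the α1ACT M2, empty-vector 1804 or empty-vector M2 list by 1 bp or more. Within 1000 bp of such a peak lay 0 as well. The annotated table itself fixes most of this: 2278 peaks of the α1ACT 1804 list are not in it, and of the 179 listed peaks that overlapped an empty-vector 1804 peak and the 149 that overlapped an empty-vector M2 peak, 0 are. Of the 73 that overlapped an α1ACT M2 peak, 1 is. The absence of overlap at the members is therefore no finding. By position the nearest α1ACT M2 peak was 15.1 Mb from the Dusp1 TSS, and the nearest peaks of the empty-vector 1804 and M2 lists were both 5.33 Mb away. The closest for any member was 0.731 Mb from Dusp2, a site in both empty-vector lists, with signals of 70.4 with 1804 and 76.5 with M2. The lowest signals in those lists were 53.6 in the α1ACT M2 list, 14.0 in the empty-vector 1804 list and 19.0 in the empty-vector M2 list. The Dusp1 peak of 15.6 was the one member peak above any of these, but the labels do not state how signals of different libraries were scaled, so they are not compared. Whether the member peaks depend on α1ACT was not tested by these lists.

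The rest of the MAP kinase pathway was described by the same measure, with 7 lists of 66 genes. Of all 18539 protein-coding genes, 32.9% had a near-TSS peak. The atypical phosphatases, at 38.5%, and the tyrosine-specific phosphatases, at 33.3%, were close to that share. The closest in kind, the atypical dual-specificity phosphatases, which lack the kinase-binding domain of the MKPs, had a near-TSS peak in 5 of 13, led by Dusp12 with 8.95 and Dusp14 with 5.81. The MAP kinases themselves had one in 8 of 10, led by Mapk8 and Mapk9, which encode JNK kinases, with 11.4 and 8.02. The kinases that activate them had one in 5 of 7, led by Map2k7 with 7.35 and Map2k2 with 5.96. Of Ras and Raf genes 3 of 6 had one, led by Nras with 12.4 and Hras with 6.16, and Braf had no row. The Sprouty and Spred inhibitors, which like the MKPs restrain ERK signalling, had one in 4 of 7, led by Spred3 with 7.84 and Spred2 with 6.99. Of the tyrosine-specific MAP kinase phosphatases Ptprr had one, with 5.20, 1 of 3. The kinases and transcription factors acted on by MAP kinases had one in 13 of 20, led by Mknk2, a kinase of the translation factor eIF4E, with 14.9 and Atf1, a CRE-binding factor, with 11.5. The Dusp1 signal of 15.6 was above that of each of these genes. The median of the highest near-TSS signal was 5.87 over the members, 5.66 over the atypical phosphatases, 4.49 over the MAP kinases, 5.70 over the kinases that activate them, 6.16 over the Ras and Raf genes, 6.50 over the Sprouty and Spred genes, 5.20 for Ptprr alone and 3.80 over the effectors, each among the genes that had such a peak.

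**Figure D4:**
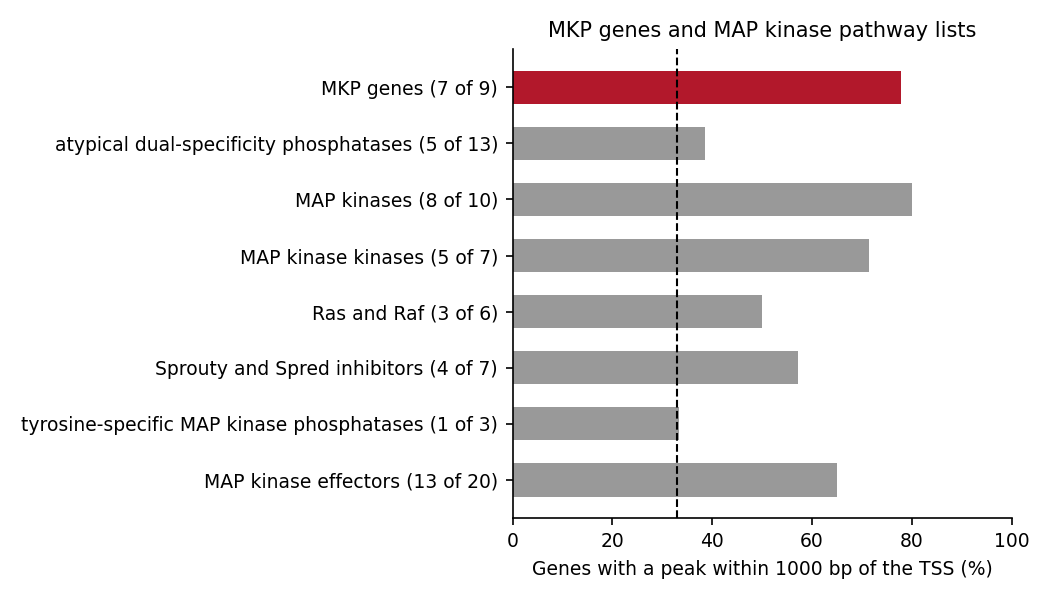
Percent of genes with a peak of the α1ACT 1804 list within 1000 bp of the TSS, for the MKP genes (red) and 7 lists of MAP kinase pathway genes (grey), with the number of genes in brackets; the dashed line marks the 32.9% of all 18539 protein-coding genes. The MKP bar, at 77.8%, is close to that of the MAP kinases, at 80.0%, and above that of the atypical phosphatases, at 38.5%.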

How the data were processed

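Peak lists of 4 precipitated libraries, 1 per group, and 1 annotated table were used, with no replicates. Per the submitters' processing notes the build was rn5 and the tools named, without their roles, were BWA 0.7.5a, HOMER, ChIPseeker, DiffBind and FastQC 0.11.2. Peak caller settings, use of the inputs and read depth were not given in the sources used here. Each deposited list holds a signal value and a −log10 q-value per peak, both made by the authors, and the p-value column of the deposited lists is not filled. Peaks were joined to the annotated table by chromosome and start, with Python 3.11.15 and pandas 2.3.3, and coordinates are 1-based. Symbols of the gene lists were matched to the table directly, and 65 of 66 were also in the RefSeq gene table of GRCr8, which gave the background and neighbours. Promoters came from RefSeq, GRCr8. Of the 9 members, 8 matched, all but Dusp4. Overlap and distance functions were tested on simulated data. The members and lists were chosen with earlier results of these data known. The genes named are all members, Dusp9, the 2 genes of highest near-TSS signal in each list, and the 3 genes most like Dusp1; others were named after their values were seen, and 1 marker gene is not reported here. The alternatives tried were other distances to the TSS, signal limits, merged peaks, position in place of assignment, a wider overlap and another background. The analysis is a description without tests, since 1 library per group allows none.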

Additional observations from a re-analysis of the deposited data

How the results depend on the processing

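Of 28 alternatives, 17 left a count within 1.5 times its value, or a share within its exact 95% binomial interval, and 11 did not. Some of the 17 could hardly have moved, so the tally is no measure of robustness. A wider distance cannot lower the number of members, and the absence of overlap was fixed by the table. The share of members in the upper 10% by signal was judged against an interval of 13.7 to 78.8%. The number of members with a near-TSS peak, 7, was 6 within 500 bp, 7 within 2000 and 3000 bp and by position in the whole list, and 5 among peaks at or above the median signal. It was 4 in the upper 10% by signal, where Dusp2, Dusp4 and Dusp7 dropped out. Their near-TSS peaks, 11 in all, numbered 17 within 3000 bp and 6 in the upper 10%. All member peaks, 89, numbered 45 at or above the median signal and 18 in the upper 10%. The share of genes of the table with a near-TSS peak, 43.2%, was 38.4% within 500 bp, 48.2% within 2000 bp, 52.3% within 3000 bp, 35.3% at or above the median signal, 19.7% in the upper 10% and 32.9% over the genes of the reference table. Measuring to the nearest edge of the peak, an alternative chosen after seeing the data, left 7 members and 11 peaks and gave 43.3%. The distance and signal settings change how many peaks are admitted, and the reference table changes the number of genes counted, 18539 in place of 14390. Depth and replicate spread limit all values and are unknown.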
